A study of Mus musculus with 594 samples.

Results

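The proteasome subunit genes are the genes whose symbol in the platform annotation is Psma, Psmb, Psmc, Psmd or Psme followed by digits, without Psmb8 and Psmb9. The rule found 37 of the 11807 genes on the arrays, each read from the probe set with the highest mean, on the log2 scale. The rule used names only, so the changes below were free to go in either direction. Psmb11, Psmc6, Psmd10 and Psme4 were not analysed here.

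The study treated 2 mouse endocrine pancreas tumour lines, alpha-TC1 (glucagon lineage) and beta-TC3 (insulin lineage), with 29 compounds dissolved in DMSO, most of them aimed at chromatin enzymes, and lysed the cells after 1, 6 or 24 h. Every group, the DMSO controls included, was grown in low-glucose medium with serum and carried the solvent. RNA was labelled and hybridised to 594 Affymetrix arrays. The titles give 7 batches, without saying of what, and an HTA number with 9 values. That number is taken here as the array plate, which the labels do not spell out. Each line is one established culture, so p-values measure only the spread between these arrays, which may be technical. The 8 hydroxamic acids were SAHA (1.3 µM), LBH-589 (0.015 µM), PXD101 (2.4 µM), ITF-2357 (10 µM), CRA-024781 (1.5 µM), pyroxamide (10 µM), trichostatin A (0.22 µM) and scriptaid (2 µM). The 3 ortho-amino anilides were MS-275 (2.9 µM), CI-994 (10 µM) and MGCD-0103 (1.1 µM), and the 2 cyclic tetrapeptides were apicidin (1.4 µM) and HC-toxin (0.12 µM). These 13 compounds are inhibitors of histone deacetylases, enzymes that take acetyl groups off histones. BIX-01294 (10 µM) inhibits a histone lysine methyltransferase, and chaetocin (1.7 µM) is a fungal product used for the same purpose. The remaining named compounds were AMI-1 (an arginine methyltransferase inhibitor) and 5-azadeoxycytidine, zebuarine and RG-0108 (aimed at DNA methylation), each at 10 µM. The 10 code-named compounds were BRD5298, BRD8451 and BRD9773 (10 µM each), BRD-K22912318 (5 µM), BRD-K17311666 (4.3 µM), BRD-K90919562 (4.1 µM), BRD-K62233722 (3.7 µM), BRD-K92415738 (3.2 µM), BRD-A94377914 (3 µM) and BRD6929 (0.91 µM). A compound group held 2 to 4 arrays. The DMSO group held 14 arrays at each time in alpha-TC1, and 12, 10 and 12 arrays at 1, 6 and 24 h in beta-TC3.

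The proteasome is the barrel-shaped protease that degrades proteins tagged with ubiquitin. Its 20S core stacks rings of alpha subunits (the Psma genes), which gate the entry, around rings of beta subunits (the Psmb genes), of which Psmb5, Psmb6 and Psmb7 carry the constitutive active sites. In the immunoproteasome these sites are replaced by Psmb8, Psmb9 and Psmb10. The 19S cap has a base with a ring of ATPases (Psmc) that unfolds substrates, a lid (most Psmd) that holds the deubiquitinase Psmd14, and helpers such as the assembly chaperones Psmd5 and Psmd9. Psme1 and Psme2 form the PA28 activator of the core, and Psme3 a nuclear relative of it. Subunit genes are known to be induced together by the factor NRF1 (Nfe2l1) with a small MAF partner when proteasome activity falls. NRF1 recognises antioxidant response elements in the promoters.

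Levels of the members were high in both lines. In DMSO at 24 h the median member stood at 9.58 in alpha-TC1 and 9.47 in beta-TC3 (log2 intensity), against 4.89 and 4.98 for the median gene on the arrays, and 36 of 37 members lay above the gene median in each line. Psma8, the testis form of an alpha subunit, was near the floor (2.85 over all arrays). Psmb10, the immunoproteasome subunit kept in the set, averaged 5.67, so its falls described below start from a low level. The labelled lines carried their defining hormones. Gcg stood at 12.32 in alpha-TC1 and 8.79 in beta-TC3, and Ins2 at 4.31 and 13.2, but Sst, the delta cell hormone, was at 12.71 in beta-TC3 and the glucose transporter Slc2a2 was near the floor (2.98) there. The summed intensity of 7 beta cell markers ran from 398 to 765 in the alpha-TC1 DMSO arrays and from 11700 to 15000 in those of beta-TC3, while the 5 alpha cell markers overlapped (6540 to 11000 against 7220 to 9150). The sum of 5 markers of other islet hormone cells ran from 46.6 to 73.3 in alpha-TC1 and from 5510 to 7470 in beta-TC3, and that of 11 non-endocrine markers from 129 to 183 and from 81.2 to 91.8. On arrays of whole cultures, fewer cells of a kind and less RNA per cell cannot be told apart.

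One array plate stood apart in these genes. Of the 65 arrays on plate 1 (42 of alpha-TC1 and 23 of beta-TC3), 62 shared a group with arrays of other plates. All 62 had a lower median of the members than the median group mate on other plates, by 0.05 to 0.66 on the log2 scale. In a fit with a plate 1 term, 29 members were lower on plate 1 and 6 were higher, with a median of -0.37, where 65.7% of all genes passed the test and the median gene differed by 0.03. The ATPase gene Psmc2 was lower by 0.90 and Psmb6 by 0.74, whereas Psmd11 was higher by 0.69. Groups differed in their plate 1 arrays. The DMSO group of beta-TC3 at 6 h had none, while 1 of the 3 chaetocin arrays there was on plate 1. Each comparison was refitted without plate 1 and with plate as a term beside batch, both chosen after seeing the data. A change called in the same direction in all 3 fits is termed plate-robust here. The arrays also carry control probe sets for the 3′ and 5′ ends of the actin transcript, whose log2 difference, the actin ratio, rises as RNA is degraded or copied incompletely. At 24 h it ran from 4.39 to 5.41 in the alpha-TC1 DMSO arrays and up to 4.98 in those of beta-TC3, and 10 of 83 and 27 of 87 compound arrays lay above these ranges. The 24 h fits were repeated without those arrays, also chosen after seeing the data. A call means an adjusted p under 0.05 in limma over all 11807 genes.

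**Figure D1:**
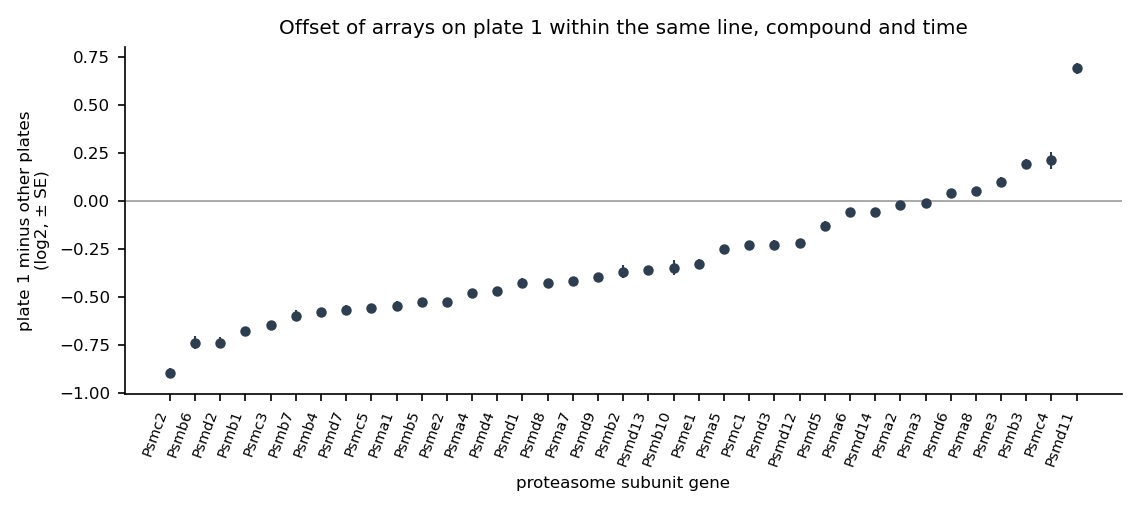
Offset of plate 1 in each member gene (log2, plate 1 minus other plates within the same line, compound and time, point ± SE), genes ordered by their offset along the horizontal axis. Most points lie below 0, from Psmc2 at -0.90 upward, and Psmd11 stands apart at 0.69.

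The lines differed in the make-up of their proteasome transcripts before any compound. In DMSO at 24 h, 23 members were higher and 9 lower in alpha-TC1 than in beta-TC3 (limma, 59.2% of all genes passed this test). Among the activators Psme3 was higher in alpha-TC1 by 1.58 ± 0.061 (log2, SE), 2.98-fold, with an adjusted p of 3.46e-53. Its DMSO arrays ran from 8.68 to 9.29 in alpha-TC1 (median 8.96) and from 7.19 to 7.74 in beta-TC3 (median 7.32), with no overlap. The PA28 genes went the other way, as Psme1 was lower in alpha-TC1 by 1.35 ± 0.068 (adjusted p 6.61e-41) and Psme2 by 0.95 ± 0.08. The Psme1 arrays ran from 7.50 to 8.14 in alpha-TC1 and from 8.86 to 9.46 in beta-TC3, again with no overlap. In the cap, the lid genes Psmd3 (1.16 ± 0.068), Psmd12 (1.09) and Psmd8 (0.91) and the ATPase genes Psmc5 (1.16 ± 0.08) and Psmc4 (1.02) were higher in alpha-TC1. The lid gene Psmd6 was lower by 0.80 ± 0.046, and of the catalytic core genes Psmb6 was lower by 0.90 ± 0.11 and Psmb5 by 0.52. Psma8, Psmb2, Psmc2, Psmc3 and Psmd2 were not called. Time in DMSO moved few members. Between 1 and 24 h only Psmb10 was called in alpha-TC1 (-0.39 ± 0.096, adjusted p 0.00313, 5.06% of genes), and in beta-TC3 Psmd3 (-0.25 ± 0.062, adjusted p 0.00219), Psme3 (-0.19) and Psmd12 (-0.17) were called, all lower at 24 h (10.3% of genes).

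No member was called after 1 h with any of the 29 compounds in either line. Over these 29 comparisons together 0.0327% of gene tests passed in alpha-TC1 and 0.0943% in beta-TC3. The averaged hydroxamic acids gave 0.593% of all genes in alpha-TC1 and 0.906% in beta-TC3 at that time, and chaetocin 0.11% and 0.0169%. At 6 h at least 1 member was called with 19 compounds in alpha-TC1 and 20 in beta-TC3, and at 24 h with 23 and 22. The share of single gene tests that passed over the 29 compounds, a different measure, was 20.8% and 22.1% at 6 h and 21.3% and 18.2% at 24 h. Over the 37 members and 29 compounds, tests called up and down at 6 h were 55 and 100 in alpha-TC1 and 78 and 190 in beta-TC3. At 24 h they were 64 and 221 and 98 and 111. The 6 h counts of alpha-TC1 include 2 rises and 19 falls with pyroxamide, whose 3 arrays there were all on plate 1. None of these could be plate-robust. With all arrays, plate 1 included, the called share of member tests was below that of all genes at 6 h in alpha-TC1. It was above it in the others. At 6 h in beta-TC3 11 of 22 falls with BIX-01294, 9 of 23 with chaetocin and 4 of 16 with BRD-A94377914 were plate-robust. With CI-994 all 16 were. The plate-robust share over the 29 compounds was not compared with that of all genes.

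The largest and most widespread change was the fall of Psmb10 at 24 h. In alpha-TC1 the 14 DMSO arrays ran from 5.92 to 6.59 with a median of 6.25. The 3 MS-275 arrays read 3.97, 4.45 and 3.82, the ITF-2357 arrays 4.01, 3.98 and 4.33, and the apicidin arrays 4.20, 4.39 and 4.42. Every array of these compounds lay more than 1 log2 unit below the lowest DMSO array. With chaetocin the 4 arrays read 4.84, 4.97, 5.05 and 5.24, below all DMSO arrays but above those 3 inhibitors. Scriptaid was the exception among the 13 deacetylase inhibitors, since its 2 arrays read 5.96 and 5.70, one inside the DMSO range and one just below it.

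In beta-TC3 the 12 DMSO arrays of Psmb10 ran from 5.44 to 6.56 with a median of 5.78. The MS-275 arrays read 4.03, 4.15 and 4.40, the ITF-2357 arrays 3.92, 3.94 and 3.98, and the chaetocin arrays 4.59, 4.98 and 5.34. All of these lay below the DMSO range. Of the scriptaid arrays (6.11, 5.32 and 5.24) 1 lay inside the range and 2 just below it. The BIX-01294 arrays (5.88, 5.80 and 5.77) lay inside it.

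Averaged over a class, Psmb10 fell by 1.84 ± 0.09 with the hydroxamic acids in alpha-TC1 (3.58-fold, adjusted p 1.56e-28) and by 1.44 ± 0.082 in beta-TC3 (2.72-fold, adjusted p 1.69e-25). With the anilides it fell by 2.11 ± 0.13 (4.31-fold, adjusted p 1.03e-23) and 1.69 ± 0.11 (3.23-fold, adjusted p 3.6e-23), and with the tetrapeptides it fell by 1.65 ± 0.13 and 1.25 ± 0.12. Chaetocin lowered it by 1.17 ± 0.16 (adjusted p 2.33e-09) and 0.90 ± 0.15 (adjusted p 1.8e-06). These 8 changes were all plate-robust, and Psmb10 was the only member with a plate-robust fall in all 8. Single compounds were called lower for Psmb10 in 22 of 29 in alpha-TC1 and 21 of 29 in beta-TC3, among them 12 of 13 deacetylase inhibitors in each line. Scriptaid, not called, gave -0.36 (adjusted p 0.651) and -0.31 (adjusted p 0.738). Among the tetrapeptides apicidin gave -1.86 and -1.82 and HC-toxin -1.44 and -0.69. Within single batches the hydroxamic acid change of Psmb10 lay between -2.26 and -1.45 in alpha-TC1 over 7 batches and between -1.66 and -1.25 in beta-TC3. In alpha-TC1 batches 4, 5 and 6 gave -1.45, -1.45 and -1.48, and batches 7, 8, 9 and 10 gave -2.13, -2.21, -2.26 and -2.19. No batch held arrays of all compounds of the class, so batch and compound cannot be told apart in this split. At 6 h the fall was already called with all 3 classes, at -0.59 ± 0.082 and -0.38 ± 0.072 for the hydroxamic acids in alpha-TC1 and beta-TC3.

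**Figure D2:**
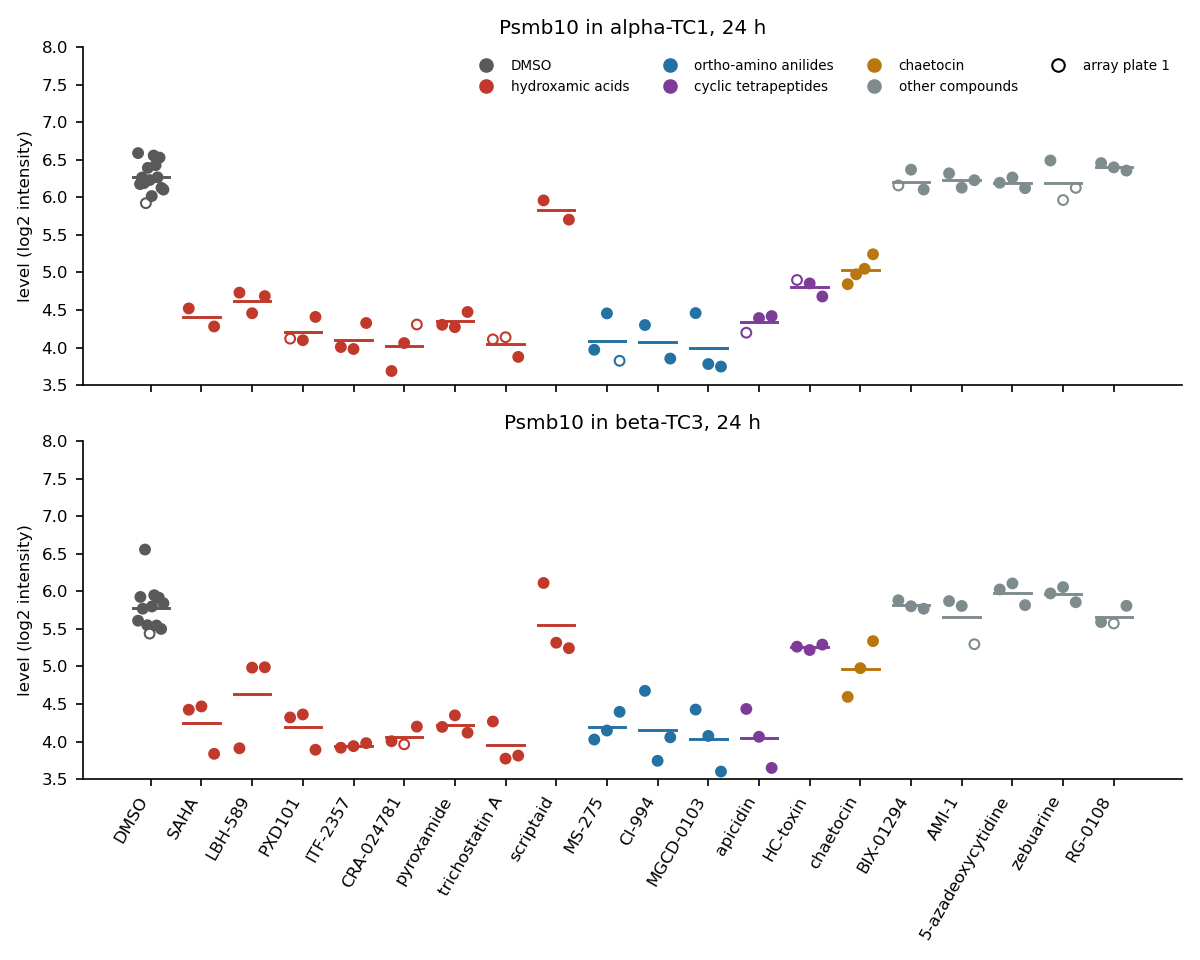
Log2 intensity of Psmb10 on each array at 24 h in both lines, for DMSO, the 13 deacetylase inhibitors, chaetocin and 5 other named compounds. Each point is an array, open points are arrays of plate 1 and bars are group means; apart from scriptaid, all inhibitor and chaetocin arrays lie below the DMSO range (lowest 5.92 in alpha-TC1 and 5.44 in beta-TC3).

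Of the other immunoproteasome genes, Psmb9 rose while Psmb10 fell. Psmb9, outside the set by the rule, rose with the anilides by 2.09 ± 0.11 in alpha-TC1 and 1.01 ± 0.082 in beta-TC3 and with the hydroxamic acids by 1.47 ± 0.083 and 0.67 ± 0.063. Its DMSO arrays in alpha-TC1 ran from 4.04 to 4.68, and its MS-275 arrays read 6.58, 6.86 and 6.66, all above that range. Psmb8 fell as Psmb10 did in beta-TC3, by 1.66 ± 0.095 with the hydroxamic acids and 0.85 ± 0.12 with the anilides. In alpha-TC1 Psmb8 rose by 0.42 ± 0.089 with the anilides and was not called with the hydroxamic acids (-0.04, adjusted p 0.67). All adjusted p-values of the called changes lay below 0.05 over all genes in limma. In the list of 4 immunoproteasome and peptide loading genes (Psmb8, Psmb9, Tapbp, Irf1), the anilides raised 4 in alpha-TC1 and raised 2 and lowered 1 in beta-TC3. At 24 h the anilides gave calls for 43.8% and 43.7% of all genes, with 22.5% and 21.7% of all genes called lower.

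Across all members, falls outnumbered rises at 24 h in both lines with the anilides and in alpha-TC1 with the other classes, and rises outnumbered falls in beta-TC3 with the hydroxamic acids and, with apicidin included, the tetrapeptides. In these 6 comparisons 29.7% to 67.6% of the members were called, against 25.5% to 50.4% of all genes. In alpha-TC1 7 members rose and 18 fell with the hydroxamic acids, where 50.4% of all genes were called and the median change was -0.12 for the members and 0 for all genes. In beta-TC3 11 rose and 8 fell (43.2% of genes), with medians of 0.03 and 0.01. With the anilides 1 rose and 17 fell in alpha-TC1 (43.8% of genes, median member -0.25 and median gene -0.01), and 1 rose and 18 fell in beta-TC3 (43.7% of genes, -0.18 and -0.02). Falls alone were called for 22.5% and 21.7% of all genes with the anilides. With the tetrapeptides 4 rose and 16 fell in alpha-TC1 (36% of genes, median -0.20), and without plate 1 the counts were 2 and 10 (26.2% of genes). Without the 2 apicidin arrays above the DMSO range of the actin ratio they were 1 and 7. In beta-TC3 9 rose and 2 fell with the tetrapeptides (25.5% of genes, median 0.09). Without apicidin none rose and 2 fell there. Apicidin by itself gave 15 rises and 3 falls, and HC-toxin no rise and 2 falls. The plate-robust counts of these 6 comparisons, up and down, were 7 and 16, 11 and 8, 1 and 16, 1 and 17, 1 and 8, and 9 and 2, and the shares of all genes under that rule were 46.3%, 40.9%, 39.7%, 41.3%, 23.4% and 25%.

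**Figure D3:**
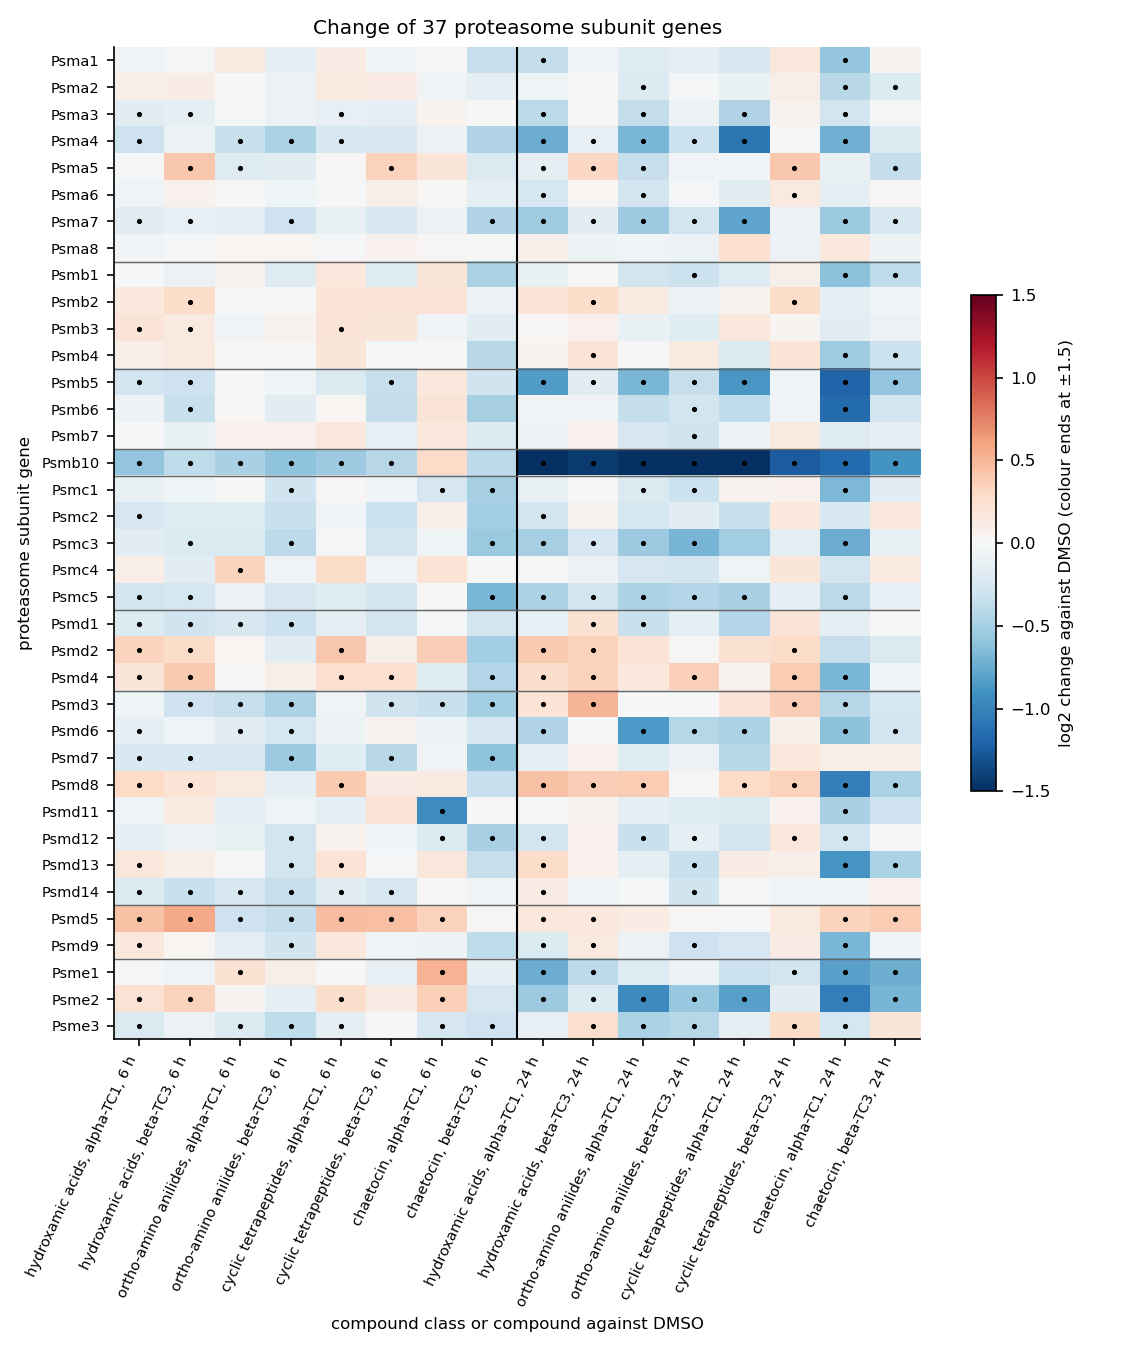
Change of each member against DMSO of the same line (log2, colour scale ending at 1.5 in either direction) for the 3 inhibitor classes and chaetocin, at 6 h in the left columns and 24 h in the right ones, with rows grouped by role and dots where the call was plate-robust. Psmb10 has the largest fall with each of the 3 classes at 24 h in both lines, and the chaetocin column of alpha-TC1 at 24 h has 25 dots, 1 of them for a rise (Psmd5).

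In the alpha ring, which gates the core, 6 of 8 genes were called lower and none higher with the hydroxamic acids in alpha-TC1, where 24.3% of all genes were called lower. The median over the 8 was -0.31, and Psma2 (-0.07) and Psma8 (0.08) were not called. The largest fall was in Psma4, at -0.74 ± 0.082 (adjusted p 3.23e-12), with -0.69 ± 0.11 for the anilides and -1.10 ± 0.12 for the tetrapeptides. The DMSO arrays of Psma4 in alpha-TC1 ran from 8.95 to 9.45 (median 9.24), and the apicidin arrays read 6.96, 8.29 and 8.63. All 3 lay below the DMSO range, and the lowest of them, the one on plate 1, was far from its mates. The apicidin arrays had actin ratios of 6.90, 5.73 and 4.38 in the same order, of which 2 lay above the DMSO range. Without plate 1 the tetrapeptide value of Psma4 was -0.78, and without the 2 arrays it was -0.80. In beta-TC3 the same gene changed by -0.12 ± 0.052 (adjusted p 0.0483), -0.32 ± 0.067 and -0.02 with the 3 classes. Psma7 fell with the hydroxamic acids in both lines, by 0.53 ± 0.068 in alpha-TC1 and by 0.17 in beta-TC3. Psma5 took opposite directions in the lines with the hydroxamic acids, at -0.13 in alpha-TC1 and 0.31 ± 0.042 (adjusted p 1.16e-09) in beta-TC3, both plate-robust. For Psma5 the 12 beta-TC3 DMSO arrays ran from 8.58 to 9.11, the apicidin arrays read 9.77, 9.69 and 9.62 and the chaetocin arrays 8.40, 8.65 and 8.50. Apicidin was above the whole DMSO range, and 2 of the 3 chaetocin arrays were below it.

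Of the constitutive catalytic genes, Psmb5 (the chymotrypsin-like site) fell in alpha-TC1 by 0.84 ± 0.082 with the hydroxamic acids (1.8-fold, adjusted p 2.07e-14), by 0.68 ± 0.11 with the anilides and by 0.87 ± 0.12 with the tetrapeptides. Its DMSO arrays there ran from 8.44 to 9.23 (median 9.03). The ITF-2357 arrays read 7.94, 8.06 and 7.96, all below the DMSO range, and the MS-275 arrays 8.38, 8.31 and 7.78, also all below it. In beta-TC3 the changes of Psmb5 were -0.16 ± 0.065 (adjusted p 0.0343), -0.34 ± 0.084 and -0.07 (adjusted p 0.657). Psmb6 (the caspase-like site) gave -0.04 and -0.05 with the hydroxamic acids and was not called. Psmb7 (the trypsin-like site) was called lower only with the anilides in beta-TC3 among these 6 class comparisons (-0.30, adjusted p 0.00889). The non-catalytic beta genes had no call with the hydroxamic acids in alpha-TC1 (0 of 4) and 2 rises of 4 in beta-TC3.

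In the 19S base, 4 of 5 ATPase genes were called lower and none higher with the hydroxamic acids in alpha-TC1 (24.3% of all genes lower), and 2 of 5 lower in beta-TC3 (20.7% lower). Psmc5 fell by 0.48 and 0.27 with the hydroxamic acids in alpha-TC1 and beta-TC3 and by 0.47 and 0.44 with the anilides. Psmc3 fell by 0.70 ± 0.09 with the anilides in beta-TC3 (adjusted p 4.15e-10) and by 0.54 in alpha-TC1. Of the 3 non-ATPase base genes 2 were called higher in alpha-TC1 and 3 in beta-TC3 with the hydroxamic acids, where 26.1% and 22.5% of all genes were called higher. The exception was Psmd1 in alpha-TC1 (-0.12, adjusted p 0.298). Psmd2, a scaffold and docking subunit, rose by 0.39 ± 0.094 and 0.35 ± 0.072, and Psmd4, a ubiquitin receptor, by 0.26 ± 0.062 and 0.35 ± 0.05 (adjusted p 1.15e-08 in beta-TC3). In beta-TC3 the DMSO arrays of Psmd4 ran from 9.29 to 10.04, and the apicidin arrays read 10.51, 10.37 and 10.32, all above them.

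The lid divided. Psmd8 rose with the hydroxamic acids by 0.44 ± 0.062 (adjusted p 5.9e-09) in alpha-TC1 and 0.37 ± 0.051 (adjusted p 2.89e-09) in beta-TC3. Its DMSO arrays ran from 9.53 to 10.18 in alpha-TC1 and from 8.75 to 9.30 in beta-TC3, and the ITF-2357 arrays read 10.52, 10.68 and 10.46 and 9.88, 9.77 and 9.77. Both sets of 3 stood above their DMSO range. Psmd3 rose by 0.51 ± 0.057 in beta-TC3 (adjusted p 2.95e-12) and 0.21 ± 0.052 in alpha-TC1 with the same class. Its beta-TC3 DMSO arrays ran from 7.16 to 7.73, and the ITF-2357 arrays read 8.46, 8.12 and 8.30, above all of them. Psmd6 fell, most with the anilides, by 0.86 ± 0.064 (adjusted p 2.79e-19) in alpha-TC1 and 0.43 ± 0.043 (adjusted p 8.98e-14) in beta-TC3. The MS-275 arrays of Psmd6 read 8.37, 8.45 and 8.63 in alpha-TC1 and 9.34, 9.73 and 9.74 in beta-TC3, below the whole DMSO ranges of 9.20 to 9.65 and 9.93 to 10.36.

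The PA28 activator genes differed between the averages of the hydroxamic acids and the anilides. Psme1 fell with the hydroxamic acids by 0.74 ± 0.069 in alpha-TC1 (adjusted p 3.68e-15) and 0.39 ± 0.048 in beta-TC3 (adjusted p 6.66e-11), and was not called with the anilides (-0.19 and -0.08). Its partner Psme2 fell more with the anilides, by 0.96 ± 0.11 (adjusted p 1.73e-11) and 0.57 ± 0.082 (adjusted p 1.1e-08), than with the hydroxamic acids, by 0.54 ± 0.08 and 0.21 ± 0.063. In alpha-TC1 the DMSO arrays of Psme1 ran from 7.50 to 8.14 (median 7.96), the ITF-2357 arrays read 5.80, 6.45 and 6.72 and the MS-275 arrays 7.72, 7.54 and 7.41. ITF-2357 lay wholly below DMSO, while MS-275 overlapped its lower end. Compounds of a class varied, and Psme1 was 0.79 higher with pyroxamide than with ITF-2357 in alpha-TC1. Over the 29 compounds there Psme1 changed by -1.58 to 0.04. Of the 13 deacetylase inhibitors 7 were called lower, 5 of them plate-robust. With the tetrapeptides Psme1 changed by -0.32 and -0.28 in alpha-TC1 and beta-TC3, and Psme2 by -0.81 and -0.16. For Psme2 in alpha-TC1 the DMSO arrays ran from 7.78 to 8.62 and the MS-275 arrays read 7.29, 7.29 and 7.05, wholly below. Psme3 fell with the anilides in both lines, by 0.48 ± 0.06 and 0.43 ± 0.062, and rose with the hydroxamic acids in beta-TC3 by 0.24.

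The difference between the hydroxamic acids and the anilides was tested directly. In alpha-TC1 at 24 h 7 members were higher and 1 lower with the hydroxamic acids (27.6% of genes), and in beta-TC3 21 were higher and 1 lower (32.5% of genes), with a median member difference of 0.11 and 0.22. Plate-robust counts were 6 and 1 in alpha-TC1 (24.5% of genes under that rule) and 21 and 1 in beta-TC3 (30.6%). The lower one was Psme1 in both lines, at -0.54 ± 0.092 (adjusted p 1.75e-06) and -0.32 ± 0.056. In beta-TC3 the largest differences were those of Psme3 (0.67 ± 0.056, adjusted p 2.62e-16), Psmd3 (0.52), Psmd9 (0.47) and Psmc3 (0.45). In alpha-TC1 they were those of Psmd13 (0.43 ± 0.081), Psmd6 (0.42 ± 0.061) and Psme2 (0.42). For Psmb10 the difference was 0.25 in beta-TC3 (adjusted p 0.0387). The compounds of the classes were used at different doses, so class and dose cannot be told apart here.

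3 inhibitors shared a dose of 10 µM and were compared in 3 pairs per line at 24 h. ITF-2357 and pyroxamide are hydroxamic acids and CI-994 is an anilide. Between the 2 hydroxamic acids 1 member was called in alpha-TC1 (2.34% of genes) and 2 in beta-TC3 (16.3% of genes). Psme1 was higher with pyroxamide than with ITF-2357 in both, by 0.79 ± 0.17 (adjusted p 0.00252) and 0.57 ± 0.12 (adjusted p 0.000146), and Psmd3 was lower in beta-TC3, by 0.39. For the 36 members not called in alpha-TC1 the 95% intervals of the difference lay within -0.60 to 0.92, and for the 35 in beta-TC3 within -0.80 to 0.76. These intervals leave room for sizeable differences. Psmb10 differed by 0.17 (95% interval -0.26 to 0.60) in alpha-TC1 and 0.31 (-0.09 to 0.71) in beta-TC3.

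More members were called with CI-994 against the hydroxamic acids at that dose than between the hydroxamic acids. In alpha-TC1 at 24 h CI-994 had 2 arrays, and the anilide arrays were in batches 4, 5 and 6. At 1 and 6 h in that line the titles put CI-994 in none of the batches of ITF-2357 or pyroxamide. Where such a pair shares no batch, its difference rests on the DMSO arrays and the batch term, so compound and batch cannot be fully told apart. With all arrays, the called share of the members was below that of all genes in alpha-TC1 and above it in beta-TC3. Against ITF-2357, 1 member was higher and 4 lower in alpha-TC1 (21.4% of genes), and 1 higher and 11 lower in beta-TC3 (20.8% of genes). Psme1 was the higher one in both, by 1.37 ± 0.19 (adjusted p 5.58e-08) and 0.74 ± 0.13. The 3 ITF-2357 arrays of Psme3 in beta-TC3 read 7.83, 7.96 and 7.78 and those of CI-994 7.0, 6.68 and 6.88. The sets lay on either side of the DMSO median of 7.32 and did not overlap, and Psme3 differed by -0.96 ± 0.13. Psmd3 differed by -0.91 ± 0.15, Psmd2 by -0.77 and Psmd8 by -0.74 in that line. Psmb10 did not pass the test, with a difference of 0.15 (95% interval -0.36 to 0.65) in alpha-TC1 and 0.06 (-0.37 to 0.49) in beta-TC3. Against pyroxamide 1 member was higher and 3 lower with CI-994 in alpha-TC1 (15.2% of genes), and 10 were lower in beta-TC3 (12.8% of genes), led by Psme3 at -0.85. Adjusted over all genes of the 3 pairs together, the calls up and down were 2 and 0, 1 and 2, and 1 and 3 in alpha-TC1, and 1 and 1, 1 and 11, and 0 and 11 in beta-TC3, in the order in which the pairs are given. The shares of all genes under that adjustment were 4.82%, 19.5% and 14.7% in alpha-TC1 and 16.4%, 19.8% and 13.7% in beta-TC3. Without the arrays above the DMSO range of the actin ratio the 3 pairs gave 0, 6 and 2 called members in beta-TC3. The adjustment over the pairs added Psme2 to the first pair and removed Psmb6 and Psmd6 from the second in alpha-TC1, and added Psmd13 to the third in beta-TC3.

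The largest changes at 6 h were smaller than those at 24 h, and some members changed direction between these times. With the hydroxamic acids Psme2 had a plate-robust rise in both lines at 6 h and a plate-robust fall in both at 24 h. In beta-TC3 Psmd3 had a plate-robust fall with 9 of 13 deacetylase inhibitors at 6 h and a plate-robust rise with 6 at 24 h. With the hydroxamic acids 9 members rose and 15 fell in alpha-TC1 (50.9% of genes) and 9 rose and 11 fell in beta-TC3 (50.3%). In alpha-TC1 8 of these rises and 12 of these falls were plate-robust (share of all genes under that rule not reported here). All 3 pyroxamide arrays there were on plate 1, so the class fit without plate 1 left that compound out. With the anilides 2 rose and 9 fell in alpha-TC1 (26.6%) and 18 fell in beta-TC3 (29.4%), and with the tetrapeptides 8 rose and 5 fell (39.1%) and 4 rose and 12 fell (38.9%). Of the last of these, 7 rose and 8 fell without plate 1 (37.8% of genes), and 3 and 5 were plate-robust (33.7% of genes under that rule). The deubiquitinase gene Psmd14 fell with all 3 classes in both lines, by 0.33 ± 0.041 with the hydroxamic acids in beta-TC3 (adjusted p 7.21e-11). There the DMSO arrays ran from 9.42 to 9.90 and the trichostatin A arrays read 9.16, 9.18 and 9.27, wholly below them.

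Psmd5, an assembly chaperone that holds back the base until the cap is complete, took opposite directions at 6 h in the classes. The 14 DMSO arrays of alpha-TC1 ran from 8.55 to 8.85 (median 8.65). The trichostatin A arrays read 9.17, 9.13 and 9.0, and the CI-994 arrays 8.39, 8.0 and 8.12. Trichostatin A lay wholly above the DMSO range and CI-994 wholly below it. In beta-TC3, where the 10 DMSO arrays of Psmd5 ran from 7.80 to 8.24, trichostatin A read 8.69, 8.48 and 8.46 and CI-994 7.54, 7.47 and 7.54, again on either side. Psmd5 rose with the hydroxamic acids by 0.44 ± 0.043 (adjusted p 1.45e-14) in alpha-TC1 and 0.57 ± 0.048 (adjusted p 2.22e-17) in beta-TC3. With the tetrapeptides it rose by 0.46 ± 0.065 and 0.45 ± 0.067. With the anilides it fell by 0.31 ± 0.06 (adjusted p 1.69e-05) and 0.36 ± 0.062 (adjusted p 2.63e-06). All 6 changes were plate-robust. By 24 h the rise with the hydroxamic acids was 0.16 in each line and the anilide change was 0.11 and 0.02, not called.

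**Figure D4:**
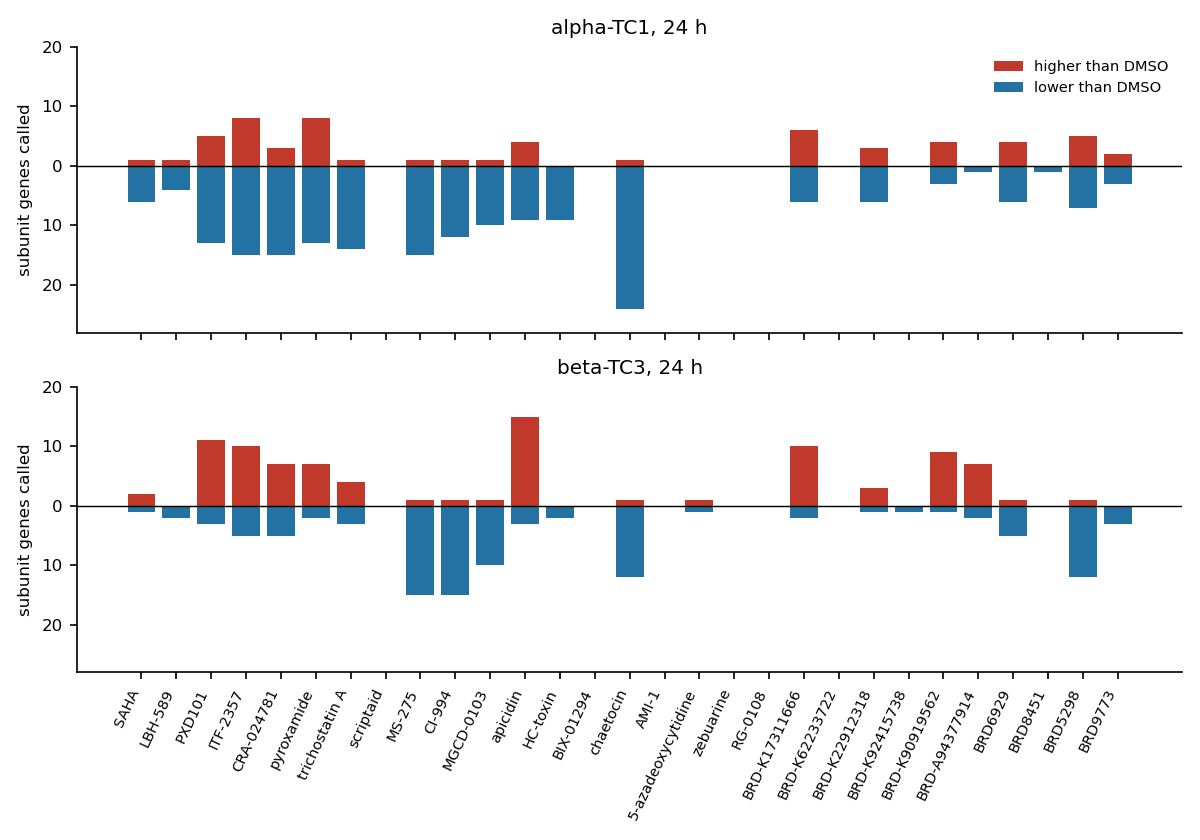
Number of members with a change in the same direction in all 3 fits at 24 h, for each of the 29 compounds in both lines, with rises above 0 and falls below it. Chaetocin in alpha-TC1 has the longest bar of falls, 24 with 1 rise, apicidin in beta-TC3 the longest of rises (15, where 35% of genes were called under that rule), and AMI-1, RG-0108, zebuarine, scriptaid, BRD-K62233722 and BIX-01294 have no bar in either line.

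With all arrays, chaetocin in alpha-TC1 lowered more members than any other of the 29 compounds did in either line at 24 h. It had 4 arrays and the others 2 or 3. Next was MS-275 in alpha-TC1 with 22 falls (37.7% of genes), with no array above the DMSO range of the actin ratio (highest 5.17). With chaetocin in alpha-TC1 24 members fell and 1 rose, where 47.9% of all genes were called and 24.5% called lower. The median change was -0.43 for the members and 0.04 for all genes. None of the 4 chaetocin arrays was on plate 1, and the counts were 1 up and 25 down without that plate (49% of genes) and 1 and 24 as plate-robust calls (46% of genes under that rule). The 4 arrays had actin ratios of 6.57, 6.23, 4.83 and 5.16 and median member levels of 8.94, 9.07, 9.14 and 9.29 (DMSO 9.42 to 9.78). The 2 above the DMSO range of the ratio were also the 2 with the lowest members. The same 3′ minus 5′ measure for Gapdh lay between -0.08 and 0.13 on the 4 arrays, inside the DMSO range of -0.33 to 0.17. Without these 2 arrays 18 members fell and 1 rose, and Psma1 (-0.34, adjusted p 0.103 in limma), Psmd11 (-0.20, adjusted p 0.503) and Psme3 (-0.20, adjusted p 0.117) were not called. Within single batches the median member change was -0.68, -0.52 and -0.13. For 11 members all 4 arrays lay below all 14 DMSO arrays, as they did for 11.6% of all genes. In beta-TC3 12 members fell and 1 rose (30.9% of genes, 15.5% lower), with a median of -0.13 against -0.02, and all 13 were plate-robust (29.4% of genes under that rule). Without the 2 of 3 arrays above the DMSO range of the actin ratio 6 members fell and none rose, and Psmb5 (-0.48, adjusted p 0.128) and Psmd5 (0.31, adjusted p 0.125) were not called in beta-TC3. 11 members had a plate-robust fall in both lines, namely Psma2, Psma7, Psmb1, Psmb4, Psmb5, Psmb10, Psmd6, Psmd8, Psmd13, Psme1 and Psme2.

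Of the constitutive catalytic genes Psmb5 and Psmb6 were among the largest falls in alpha-TC1, while Psmb7 gave -0.19 and -0.13 in the lines and was not called. The 4 chaetocin arrays of Psmb5 in alpha-TC1 read 7.25, 7.79, 8.01 and 8.34, all below the lowest of the 14 DMSO arrays (8.44). The fall was 1.20 ± 0.14 (2.3-fold, adjusted p 6.49e-11), and in beta-TC3 it was 0.59 ± 0.12 (1.51-fold, adjusted p 5.82e-05). For Psmb6 the arrays read 7.34, 7.51, 7.66 and 8.13 against a DMSO range of 8.06 to 9.07, so 1 of the 4 overlapped. It fell by 1.16 ± 0.19 (adjusted p 2.53e-07) in alpha-TC1 and gave -0.29 (adjusted p 0.162) in beta-TC3. In the cap the lid gene Psmd8 read 8.85, 9.07, 8.93 and 9.05 against 9.53 to 10.18 in DMSO, wholly below it, and fell by 1.03 ± 0.11 (adjusted p 7.53e-13) in alpha-TC1 and 0.47 ± 0.095 (adjusted p 5.2e-05) in beta-TC3. This is the gene that rose with the hydroxamic acids. Psmd13 fell by 0.89 ± 0.11 and 0.48 ± 0.09, and Psmc1 by 0.67 ± 0.079 in alpha-TC1 (adjusted p 3.7e-11). Both PA28 genes fell in both lines, Psme1 by 0.81 ± 0.12 and 0.73 ± 0.09 and Psme2 by 1.04 ± 0.14 and 0.70 ± 0.12. The chaperone gene Psmd5 was the one riser in each line, by 0.33 ± 0.078 and 0.38 ± 0.081. Its alpha-TC1 arrays read 8.89, 8.92, 9.07 and 8.99, all above the highest DMSO array at 8.83.

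By role, where 24.5% of all genes were called lower in alpha-TC1 and 15.5% in beta-TC3, chaetocin in alpha-TC1 lowered 5 of 8 alpha ring genes, 2 of 4 non-catalytic and 2 of 3 catalytic beta genes, 3 of 5 ATPases, 1 of 3 other base genes, 6 of 8 lid genes and 3 of 3 activators. In beta-TC3 the same roles gave 3, 2, 1, 0, 0, 3 and 2 falls. At 6 h the line order was different. In alpha-TC1 3 members rose and 5 fell (32.7% of genes), led by Psmd11 at -0.94 ± 0.18 (adjusted p 9.38e-06), with Psme1 up by 0.52 ± 0.097. The 3 arrays of Psmd11 read 8.51, 8.27 and 8.81, all below the DMSO range of 9.27 to 10.21. In beta-TC3 23 members fell with all arrays (23.6% of genes, 11.9% lower), but 10 without plate 1 (17.6% of genes) and 9 plate-robust (14.4% of genes under that rule), of which Psmc5 (-0.69 ± 0.14), Psmd7 (-0.60 ± 0.14) and Psmc3 (-0.56 ± 0.13) were the largest.

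**Figure D5:**
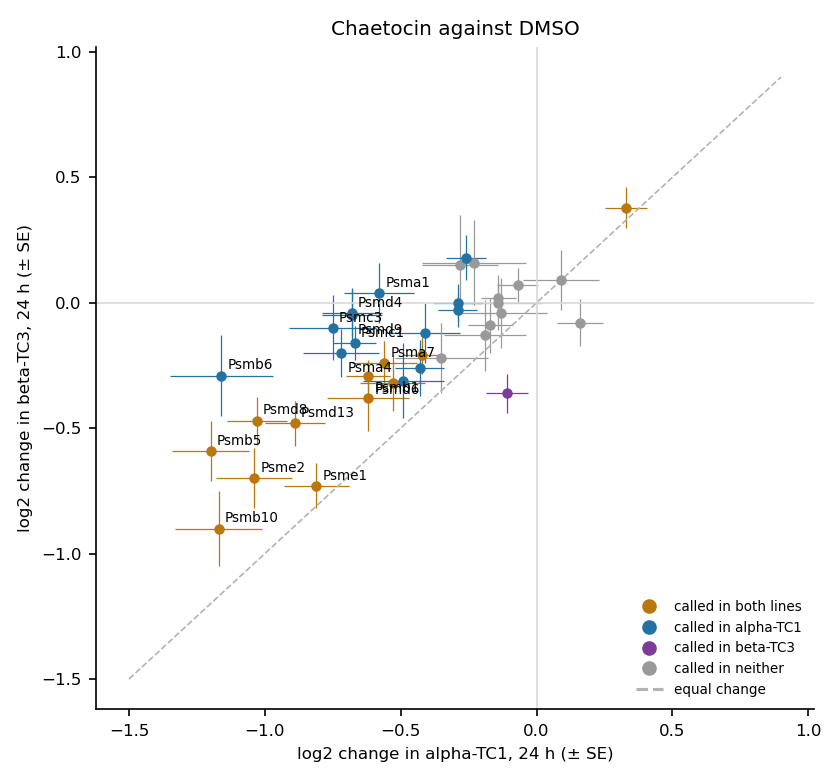
Change of each member with chaetocin at 24 h (log2, point ± SE) in alpha-TC1 on the horizontal axis and beta-TC3 on the vertical one, coloured by the lines in which the call was plate-robust; the dashed line marks equal change. Psmb5, Psmd8 and Psmb6 lie farther from 0 in alpha-TC1 (-1.20, -1.03 and -1.16) than in beta-TC3 (-0.59, -0.47 and -0.29), and Psmd5 lies at 0.33 and 0.38.

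Because NRF1 is known to act through antioxidant response elements, the promoters of the members were searched for the core motif TGANNNNGC on both strands in RefSeq's windows on GRCm38.p6, from 250 bases before to 50 bases after the gene start. A window was found for 30 of 37 members, and 15 of them (50%) held the motif, against 11188 of 27025 windows (41.4%). The 250 bases before the start are shown 5′ to 3′ on the gene's strand for Psmb5, Psmb6 and Psma4, the 3 members with the largest called change at 24 h among the class averages and chaetocin whose window holds the motif, with the match in capitals. They lie at chr14:54617996-54618245 (minus strand), chr11:70525107-70525356 (plus strand) and chr9:54950609-54950858 (plus strand).
Psmb5: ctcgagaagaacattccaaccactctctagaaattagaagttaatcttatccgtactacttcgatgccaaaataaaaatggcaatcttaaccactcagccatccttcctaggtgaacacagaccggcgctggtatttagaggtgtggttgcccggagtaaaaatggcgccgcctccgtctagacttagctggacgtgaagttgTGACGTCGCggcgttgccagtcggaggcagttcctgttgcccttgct
Psmb6: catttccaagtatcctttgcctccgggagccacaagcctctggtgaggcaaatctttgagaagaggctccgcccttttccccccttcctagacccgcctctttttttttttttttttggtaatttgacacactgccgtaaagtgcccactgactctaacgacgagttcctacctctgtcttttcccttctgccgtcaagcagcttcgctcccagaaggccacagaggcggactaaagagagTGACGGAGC
Psma4: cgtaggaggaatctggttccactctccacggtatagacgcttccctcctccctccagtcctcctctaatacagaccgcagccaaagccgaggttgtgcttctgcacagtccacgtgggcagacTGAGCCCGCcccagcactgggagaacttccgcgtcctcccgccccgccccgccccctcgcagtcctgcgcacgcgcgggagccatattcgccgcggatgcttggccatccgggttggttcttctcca
The match shown begins 47 bases before the start in Psmb5, 9 bases before it in Psmb6 and 127 bases before it in Psma4. The windows of Psmb5 and Psma4 each hold a further match after the start, outside the bases shown. It spans bases 42 to 50 in Psmb5 and, on the other strand, bases 24 to 32 in Psma4. The window of Psmb10 holds none. A match is a description of the letters and says nothing of binding.

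In a list of 8 genes of the NRF1 pathway, chosen with earlier results of these data known, 4 rose and 1 fell with chaetocin in alpha-TC1, where 47.9% of all genes were called, and 5 rose and 1 fell in beta-TC3, where 30.9% were. Mafg, a small MAF partner, rose by 2.70 ± 0.15 (6.49-fold, adjusted p 1.28e-25) and 1.71 ± 0.099 (3.28-fold, adjusted p 2.83e-24). Ngly1, the deglycosylase that processes NRF1, rose by 1.61 ± 0.14 and 0.63 ± 0.089, while Nfe2l1 itself fell by 0.86 ± 0.13 in alpha-TC1 (adjusted p 1.16e-07) and gave -0.21 (adjusted p 0.38) in beta-TC3. Mafg fell with the hydroxamic acids, by 0.71 ± 0.083 and 0.56 ± 0.053. In the list of 10 heat shock genes 7 rose in alpha-TC1 and 4 in beta-TC3 with chaetocin and none fell, where 23.4% and 15.4% of all genes were called higher, with Hspa1b up by 2.46 ± 0.3 and 1.69 ± 0.13.

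Lists of neighbouring pathways are read against the same shares of all genes, 23.4% higher and 24.5% lower in alpha-TC1 and 15.4% and 15.5% in beta-TC3 with chaetocin. Of 10 assembly factors and accessory proteins, chaetocin raised 2 and lowered 5 in alpha-TC1 (median -0.22) and raised 5 and lowered 2 in beta-TC3 (median 0.29). The core assembly chaperone genes Psmg2 and Psmg3 fell by 0.89 ± 0.18 and 0.88 ± 0.11 in alpha-TC1 and rose by 0.48 ± 0.17 and 0.32 ± 0.1 in beta-TC3. With the hydroxamic acids the same list gave 1 rise and 4 falls in alpha-TC1 and 6 rises and no fall in beta-TC3 (26.1% of all genes higher and 24.3% lower, and 22.5% and 20.7%), with Psmg1 at -0.41 ± 0.073 and 0.42 ± 0.051. Of 7 genes of the ubiquitin shuttles and p97, all 7 fell with chaetocin in alpha-TC1 (median -0.46) and 4 fell in beta-TC3. Of 9 subunits of the COP9 signalosome, a complex built like the proteasome lid, 8 fell with chaetocin and 9 with the anilides in alpha-TC1, with medians of -0.54 and -0.60, and 4 and 5 fell in beta-TC3. With the anilides 22.5% and 21.7% of all genes were called lower. Cops6 fell most with chaetocin in alpha-TC1, by 1.14 ± 0.11.

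BIX-01294 gave no member call at 24 h in either line (1.6% and 1.2% of genes) and none at 6 h in alpha-TC1 (4.38% of genes). In beta-TC3 at 6 h 22 members fell (11% of genes, 5.73% lower), 12 without plate 1 (6.01% of genes) and 11 plate-robust (5.19% of genes under that rule). Leaving out 1 replicate number at a time, in all compounds, gave 8 calls without replicate 1, 21 without replicate 2 (1 of them higher) and 0 without replicate 3. Replicate 3 is the BIX-01294 array on plate 1. The fit without replicate 3 kept plate 1 arrays of other compounds, which the fit without plate 1 left out. The count thus differed between these 2 fits, neither of which left out that array alone. The BIX-01294 array of replicate 1, on plate 7, had the same median member level (9.07) as the one on plate 1 (9.07). The plate-robust falls included Psmb6 (-0.64 ± 0.15, adjusted p 0.00233), Psmc2 (-0.62 ± 0.17), Psmc3 (-0.57 ± 0.13), Psmd2 (-0.57 ± 0.15) and Psma1 (-0.56 ± 0.13). For Psmb6 the 3 arrays read 8.88, 9.84 and 9.09 and the 10 DMSO arrays ran from 9.79 to 10.08. One array lay inside the DMSO range. Psmb6 and Psmc2 are among the members with the largest plate 1 offsets. The BIX-01294 group holds 1 array of plate 1 and the DMSO group none. The part of the plate in these falls was not tested.

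Among single compounds at 24 h in alpha-TC1, ITF-2357 raised 8 members and lowered 16 (46.2% of genes), pyroxamide raised 9 and lowered 14 (41.2%), MS-275 raised 1 and lowered 22 (37.7%), trichostatin A raised 1 and lowered 18 (42.8%), and SAHA raised 1 and lowered 6 (20.7%). Scriptaid gave no call in either line (0.423% and 0.0508% of genes). In beta-TC3 apicidin raised 15 and lowered 3 (36.1%), PXD101 raised 12 and lowered 3 (42.4%) and ITF-2357 raised 10 and lowered 5 (40.4%), whereas MS-275 and CI-994 each raised 1 and lowered 15 (32.9% and 33.8%). Rises outnumbered falls with those 3 and falls outnumbered rises with both anilides. Of the code-named compounds BRD-K17311666 raised 6 and lowered 6 in alpha-TC1 (29.4%) and raised 11 and lowered 2 in beta-TC3 (24.1%), and BRD5298 raised 5 and lowered 9 (32.4%) and raised 1 and lowered 12 (26%). BRD8451 lowered Psmb10 alone in alpha-TC1 (-0.78, adjusted p 0.0182, 0.263% of genes) and gave -0.20 in beta-TC3. Of the compounds aimed at DNA methylation, 5-azadeoxycytidine in beta-TC3 gave Psme3 at 0.36 ± 0.092 (adjusted p 0.00601) and Psmd11 at -0.48 ± 0.15 (adjusted p 0.0332), both plate-robust, and Psma6 at -0.24 (adjusted p 0.00944), not plate-robust, where 8.38% of genes were called. In alpha-TC1 it gave Psmd6 at -0.28 (adjusted p 0.0356), not plate-robust, where 6.78% of genes were called. Zebuarine, RG-0108 and AMI-1 gave no member call in either line, and no gene was called with them (0%) other than with zebuarine in beta-TC3 (3.36%).

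The difference of the 24 h change between the lines was tested as an interaction. With the hydroxamic acids 2 members changed more positively and 16 more negatively in alpha-TC1 (33.9% of genes), with the anilides 2 and 8 (28.6%), with the tetrapeptides 1 and 15 (21.7%) and with chaetocin 1 and 12 (27.1%). The plate-robust counts were 2 and 16, 2 and 7, 0 and 12, and 1 and 12, where that rule kept 31%, 26.7%, 13.5% and 26.1% of genes. With the hydroxamic acids the largest differences were those of Psmb5 (-0.68 ± 0.11, adjusted p 2.72e-08), Psma4 (-0.60 ± 0.1), Psma5 (-0.45) and Psmd6 (-0.43). With chaetocin they were those of Psmb6 (-0.83 ± 0.24, adjusted p 0.00531), Psmd9 (-0.66 ± 0.15, adjusted p 0.000305) and Psmb5 (-0.62). For Psmd9 a dimmer probe set, not used here, went the other way with the hydroxamic acids in alpha-TC1 (0.21 against -0.20) and the anilides in beta-TC3 (0.16 against -0.31). Psmb10 fell more in alpha-TC1 with the hydroxamic acids, by a difference of -0.43 (adjusted p 0.00537), and its difference with chaetocin was -0.48 ± 0.23 (adjusted p 0.108). In DMSO Psmb10 started 0.48 ± 0.1 higher in alpha-TC1.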

How the data were processed

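The deposited values are 1 intensity per probe set and array, made by the authors with RMA per the submitters' processing notes (version not given in the sources used here). The deposited intensities run from 3.962 to 13635 and are linear, although log2 values had been assumed, so log2 was taken here. The 594 arrays hold 22716 probe sets, of which 18003 have 1 symbol in the platform annotation, 287 several and 4426 none. Array medians ran from 4.363 to 4.729 (log2), and no arrays were identical. The number of arrays limits the precision.

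Line, compound, dose, time, replicate and batch came from the titles. The HTA number in the titles was taken as the array plate, a reading that the labels do not spell out. Each line and time was fitted with limma 3.58.1 (R 4.3.3) on the probe set with the highest mean per gene, with batch as a fixed term, all arrays of that line and time sharing the spread, and each compound of a class weighted equally. The Benjamini-Hochberg adjustment ran over all 11807 genes, and a call is an adjusted p under 0.05. Line differences at 24 h and DMSO over time used joint fits. Comparisons with DMSO in a line and time share its DMSO arrays. The fits were tested on simulated data. Figures were drawn with matplotlib 3.10.9 (Python 3.11.15).

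The members, lists and pairs were chosen with earlier results of these data known. The rule allowed every member to be named, asked for the 4 largest rises and falls per comparison, and allowed up to 4 called genes of each pathway list. Members with single-array values were chosen after these were seen. Alternatives changed the scaling, probe set, gene filter, batch term and adjustment, and left out replicates, compounds and, chosen after seeing the data, arrays with a high actin ratio. 11 members have several probe sets, and in 6 of 88 comparisons these differed in sign beyond 0.1 (in Psmb3, Psmd4, Psmd7, Psmd9 and Psme3). Promoter sequences are RefSeq's, on GRCm38.p6.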

Additional observations from a re-analysis of the deposited data

Results flagged for a closer look

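3 single arrays lay apart from their group, out of 74 tests in 2 groups of 4 to 10 arrays, where chance gives about 1 in 20. With chaetocin at 24 h in alpha-TC1, 1 array of Psmb3 read 11.7 (log2), with the nearest of the others at 11.35, and 1 array of Psmd11 read 8.4, with the nearest at 9.09. In DMSO at 6 h in beta-TC3, 1 array of Psma6 read 10.87, with the nearest at 10.76.

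The change against DMSO at 24 h differed between the lines by 0.5 or more on the log2 scale for 17 pairs of member and treatment, by the interaction test in limma in all 3 fits. Each value is the change in alpha-TC1 minus that in beta-TC3, and all were negative. With the hydroxamic acids these were Psma4 (-0.60) and Psmb5 (-0.68), and with the anilides Psmb10 (-0.55). With the tetrapeptides they were Psma4 (-1.01), Psmb5 (-0.81), Psma7 (-0.64), Psmb10 (-0.61), Psme2 (-0.61), Psmd7 (-0.60) and Psmd6 (-0.56). With chaetocin they were Psmb6 (-0.83), Psmd9 (-0.66), Psmb5 (-0.62), Psmc3 (-0.60), Psmd4 (-0.57), Psmd8 (-0.56) and Psma1 (-0.52). Psmb5 was the member found with 3 of the 4 treatments.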

How the results depend on the processing

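Of 502 recomputed counts of called members, 402 stayed within 1.5 times the reported count and 100 moved. Of 3935 values of single members, 3541 kept direction and call, 390 lost the call and 4 turned. The cause was not tested. The values that turned were Psmb3 with the tetrapeptides (-0.02 at 6 h in beta-TC3 with the mean of all probe sets, -0.13 at 24 h in alpha-TC1 without apicidin), Psme3 (-0.05 at 24 h in beta-TC3 without apicidin) and Psmd1 (24 h in alpha-TC1, -0.67 to 0.02 without 1 replicate in turn). Counts below are members called. For the anilides at 6 h in alpha-TC1, batch and plate terms gave 17. For the tetrapeptides at 6 h in alpha-TC1 the counts were 8 with no batch term, 20 with batch and plate, and 6 without apicidin or without HC-toxin, and in beta-TC3 9 with only the arrays of the groups compared and 9 without HC-toxin. At 24 h in alpha-TC1 they were 13 with only those groups, 12 without plate 1 and 12 without apicidin, and in beta-TC3 6 with no batch term, 7 with only those groups, 18 with batch and plate, 2 without apicidin (none higher and 2 lower, against 9 and 2 with it) and 18 without HC-toxin. For chaetocin they were 15 with batch and plate at 6 h in alpha-TC1 and 20 at 24 h in beta-TC3. At 6 h in beta-TC3 they were 14 with no batch term, 13 with only those groups, 10 without plate 1, 12 with batch and plate and 12 with plate as a random block. For BIX-01294 at 6 h in alpha-TC1, where 0 were called, batch and plate gave 3 and quantile scaling, dim genes left out, the mean of probe sets, no plate 1, plate as a random block and 1 adjustment over all comparisons gave 1 each. At 6 h in beta-TC3 they were 12 with no batch term, 10 with only those groups and 12 without plate 1. At 24 h 1 adjustment gave 2 in alpha-TC1, and in beta-TC3 2 were called without plate 1 and 1 each with quantile scaling, dim genes left out, batch and plate, the random block and 1 adjustment. For hydroxamic acids against anilides at 24 h in alpha-TC1 they were 4 with only those groups, 15 with batch and plate and 4 without MS-275. For pyroxamide against ITF-2357 they were 2 in alpha-TC1 without plate 1, with batch and plate or the random block, and in beta-TC3 1 with no batch term and 4 without plate 1 or with batch and plate. For CI-994 against ITF-2357 they were 14 with batch and plate and 8 with the random block in alpha-TC1, and 19 without plate 1, 24 with batch and plate and 20 with the random block in beta-TC3. Against pyroxamide batch and plate gave 10 in alpha-TC1 and 20 in beta-TC3, where the random block gave 18. For DMSO over time they were 2 with only those groups, 2 without plate 1 and 3 with batch and plate in alpha-TC1, and 1 with no batch term, 5 with arrays centred, 5 with dim genes left out and 10 with batch and plate in beta-TC3. The chaetocin line difference gave 7 with no batch term. Without arrays above the DMSO range of the actin ratio, at 24 h, the counts were 8 for the tetrapeptides in alpha-TC1 and, in beta-TC3, 6 for chaetocin, 0 for pyroxamide against ITF-2357, 6 for CI-994 against ITF-2357 and 2 for CI-994 against pyroxamide. Without 1 replicate in turn the ranges were, for the tetrapeptides, 6 to 6 and 9 to 14 at 6 h and 10 to 20 and 6 to 8 at 24 h in alpha-TC1 and beta-TC3, for chaetocin at 6 h 2 to 6 and 10 to 23, for BIX-01294 at 6 h in beta-TC3 0 to 21, for the class difference in alpha-TC1 4 to 10, for pyroxamide against ITF-2357 0 to 1 and 1 to 1, for CI-994 against ITF-2357 in alpha-TC1 1 to 5, for CI-994 against pyroxamide 0 to 2 and 4 to 5, and for the line differences 4 to 11 (anilides), 10 to 18 (tetrapeptides) and 3 to 14 (chaetocin). Fits of pairs with only the arrays compared were not run.

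Arrays with the same replicate number did not deviate together (median correlation 0.018 in alpha-TC1 and 0.007 in beta-TC3, lowest -0.7 and -0.461), so the numbers are not taken as a pairing. With replicate number as a block, over compound arrays alone, the class difference at 24 h gave 7 calls with no block, 11 with the block in place of batch and 8 with both in alpha-TC1, and 21, 23 and 21 in beta-TC3.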
